A study of Mus musculus with 9 samples.

Results

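Imprinted genes are transcribed mainly from 1 of the 2 parental copies, and many of them set growth before birth. A group of 10 such genes outside the Igf2 and Dlk1 regions was followed in the livers and liver tumours of a Notch mouse model: Peg3, Peg10, Sgce, Mest, Plagl1 and Ndn, known as paternally expressed, and Cdkn1c, Grb10, Zim1 and Gnas, known as maternally expressed. The genes were chosen by name. Of the 10, 9 had a probe set that the platform annotation assigns to that gene alone, out of 19938 genes with such a probe set. Gnas was listed only on a probe set with 2 gene names, so no value is given for it. None of the other 9 was called in either direction (adjusted p under 0.05 in limma), while Peg10, Sgce, Grb10, Peg3 and Zim1 were far above every control on some tumour arrays (2.39 to 4.03 above the control mean on the log2 scale for Peg10, Sgce, Peg3 and Zim1, and 1.89 for Grb10, each on its highest array).

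Total RNA of 9 samples was measured, with 1 Affymetrix Mouse Gene 1.0 ST array per sample. The 4 controls were livers labelled healthy from monotransgenic mice with the Rosa26-lsl-NICD allele, an intracellular Notch1 domain (NICD) behind a removable stop, without Cre. The 5 tumours were hepatocellular carcinomas (HCC) of bitransgenic AFP-Cre/Rosa26-lsl-NICD mice. There Cre, driven by the promoter of alpha-fetoprotein, switches NICD on in cells that have used that promoter and in their descendants. Both groups therefore carried the NICD allele, and all mice were 6 to 12 months old on a hybrid 129 x C57BL/6 background. The labels do not tie arrays to single animals, so the p-values reflect array-to-array spread, which may be partly technical. Sex and litter were not used here, and the number of arrays limits the precision.

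Values are log2 of intensities summarised by RMA (robust multi-array average, which corrects background, quantile-normalises arrays and combines the probes of a probe set). Array medians lay between 91.5 and 101 intensity units on the linear scale. Hepatocyte markers were high in both groups, with albumin (Alb) at 13.47 to 13.66 in control liver and 13.02 to 13.56 in HCC. All 6 measured hepatocyte markers had a negative log2 change. Of them, Cps1 (-0.83) and Tat (-0.88) were lower on each tumour than on each control. Xist, transcribed from an inactive X chromosome, was between 10.68 and 11.76 on control arrays 1, 2 and 3 and HCC arrays 1 and 2, and between 4.83 and 5.10 on control array 4 and HCC arrays 3, 4 and 5. No detection call was used, so a low value does not show that a transcript was absent. In bulk tissue, fewer cells of a type and less RNA per cell cannot be told apart.

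In imprinting, DNA methylation laid down in egg or sperm at a control region determines which parental copy of the genes around it is active. Neighbours in a domain are therefore often regulated together. Paternally expressed genes such as Peg3, Mest and Plagl1 and maternally expressed ones such as Cdkn1c and Grb10 have opposite or tissue-dependent effects on growth, and most are strongly active in the fetus and low in adult liver. The array reads total transcript, so which parental copy was active was not measured.

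The promoters of the members that stood out on single tumours are shown first, as the 250 bases before the RefSeq transcript start in GRCm38.p6, each on the minus strand. The table of promoters held 7 of the 10 members; Peg10, Sgce and Cdkn1c were not among them. Capitals mark matches on either strand to the PLAGL1 core GGGGCCCC, the core GTGGGAA of RBPJ (the DNA-binding partner of NICD) or the cyclic AMP response element (CRE) TGACGTCA, which do not overlap here. These letters were chosen after the windows had been read.
Peg3, chr7:6730420-6730669: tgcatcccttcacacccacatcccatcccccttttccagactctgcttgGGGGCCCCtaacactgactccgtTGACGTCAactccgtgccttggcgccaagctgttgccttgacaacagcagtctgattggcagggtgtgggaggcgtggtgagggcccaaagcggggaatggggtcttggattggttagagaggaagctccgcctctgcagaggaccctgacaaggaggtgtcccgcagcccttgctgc
Zim1, chr7:6696433-6696682: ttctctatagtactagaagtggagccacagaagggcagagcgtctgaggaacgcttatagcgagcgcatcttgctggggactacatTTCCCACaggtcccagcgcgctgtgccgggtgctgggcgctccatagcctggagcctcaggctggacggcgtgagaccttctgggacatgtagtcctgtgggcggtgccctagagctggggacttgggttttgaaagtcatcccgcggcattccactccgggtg
Grb10, chr11:12037421-12037670: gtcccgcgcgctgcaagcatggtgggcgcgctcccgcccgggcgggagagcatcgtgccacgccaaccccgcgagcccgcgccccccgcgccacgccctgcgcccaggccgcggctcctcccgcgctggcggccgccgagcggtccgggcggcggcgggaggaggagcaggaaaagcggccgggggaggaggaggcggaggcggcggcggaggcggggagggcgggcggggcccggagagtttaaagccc
The Peg3 window held 1 PLAGL1 core, 201 to 194 bases before the start, and 1 CRE, 178 to 171 bases before it. The Zim1 window held 1 RBPJ core on the opposite strand, 164 to 158 bases before the start. The Grb10 window, the more upstream of 2 for this gene, held none of them. Over all 32851 windows of this length, 0.889% held the PLAGL1 core, 5.42% the RBPJ core and 1.55% the CRE. Among the 13 windows of the 7 members, these counts were 1, 2 and 1, the other RBPJ match being in a Gnas window. CpG dinucleotides numbered 8 in the Peg3 window, 14 in the Zim1 window and 40 in the Grb10 window, against a median of 6 over all windows. The other Grb10 window, not shown, had 8. The window of Usp29, read from the other strand, overlaps that of Peg3, as these genes start next to each other and run in opposite directions.

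Peg10 and Sgce, which start next to each other on chromosome 6 and run in opposite directions, were the members with the largest mean differences. Peg10, a gag-like protein derived from a retrotransposon and needed by the placenta, was at 6.60, 6.62, 6.73 and 6.14 on control arrays 1 to 4. On HCC arrays 1 to 5 it was at 8.13, 10.07, 7.23, 8.44 and 6.98. Every tumour was above every control, but by amounts that ranged from near the control level on array 5 to 11.7-fold above the control mean on array 2.

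The mean of Peg10 was 6.52 ± 0.26 (SD, n = 4) in control liver and 8.17 ± 1.22 (SD, n = 5) in HCC, a log2 change of 1.65 (SE 0.55, 95% interval 0.40 to 2.89) that did not pass in limma (unadjusted p = 0.0150, adjusted p = 0.155). Sgce encodes epsilon-sarcoglycan, a membrane protein of the dystrophin-associated complex. It was at 6.92, 7.66, 8.01 and 6.97 on control arrays 1 to 4 and at 9.81, 10.61, 7.43, 9.53 and 8.26 on HCC arrays 1 to 5. HCC array 3 lay within the control range and the other 4 tumours above it, with array 2 highest, as for Peg10. The log2 change of Sgce was 1.74 (SE 0.60, 95% interval 0.39 to 3.09; 7.39 ± 0.53 in control liver and 9.13 ± 1.27 in HCC, SD), also short of the threshold in limma (unadjusted p = 0.0171, adjusted p = 0.162).

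Since Xist differed among the arrays, both genes were also read within each Xist class. Among arrays with high Xist, the mean of 2 tumours exceeded that of 3 controls by 2.45 for Peg10 and 2.68 for Sgce on the log2 scale. Among arrays with low Xist, the mean of 3 tumours exceeded the single control by 1.41 and 1.44. In both classes each tumour lay above each control for both genes. With Xist as a covariate in limma the changes were 2.03 for Peg10 and 2.16 for Sgce (adjusted p = 0.0748 for each).

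In the same domain 1 gene rose past the threshold, Ppp1r9a (neurabin, an actin-binding partner of protein phosphatase), the next listed gene after Peg10 and one reported as maternally expressed in some mouse tissues. It was at 6.30, 6.26, 6.22 and 6.57 on control arrays 1 to 4 and at 8.50, 7.79, 7.56, 8.14 and 7.13 on HCC arrays 1 to 5. The groups did not overlap, and the log2 change was 1.49 (SE 0.25, 95% interval 0.93 to 2.04), which is 2.81-fold (limma adjusted p = 0.0378). The call was lost in 7 of 9 omissions of 1 array, those of each control and of HCC arrays 2, 3 and 4 (limma adjusted p 0.0637 to 0.138), while the log2 change stayed between 1.32 and 1.66 over all 9. Ppp1r9a had its highest tumour value on array 1, whereas Peg10 and Sgce had theirs on array 2.

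The other 7 listed genes of the domain did not pass and lay on both sides of 0. Pon1, a paraoxonase that hepatocytes secrete with high-density lipoprotein, was at 12.18 to 12.32 in control liver and at 9.72, 10.51, 12.03, 9.41 and 11.92 on HCC arrays 1 to 5, all below the controls. Its log2 change was -1.51 (SE 0.54, limma adjusted p = 0.171), and that of its paralog Pon3 was -0.71 (SE 0.16, limma adjusted p = 0.0655), again with each tumour below each control. Pon3 was called lower with dim genes filtered out (limma adjusted p = 0.0450), with the replicate number as a block (0.0478) and without HCC array 5 (0.0219). Tfpi2, a protease inhibitor on the other side of Sgce, had a log2 change of -0.68 (SE 0.21, limma adjusted p = 0.136), and Casd1, a sialic acid O-acetyltransferase next to Sgce, one of 0.18 (SE 0.21, limma adjusted p = 0.654). Pon2, the third paraoxonase, had a log2 change of -0.23, Asb4, a substrate adaptor of ubiquitin ligases, one of 0.13, and Calcr, the calcitonin receptor, one of -0.05 (limma adjusted p 0.336 to 0.790). Of the 10 listed genes of the domain, the 2 members included, 1 was called higher and none lower in limma, and 3 in each direction had an unadjusted p under 0.05. Over all genes, 0.858% were called higher and 0.160% lower, and 10.5% and 9.85% had an unadjusted p under 0.05 in these directions.

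**Figure D1:**
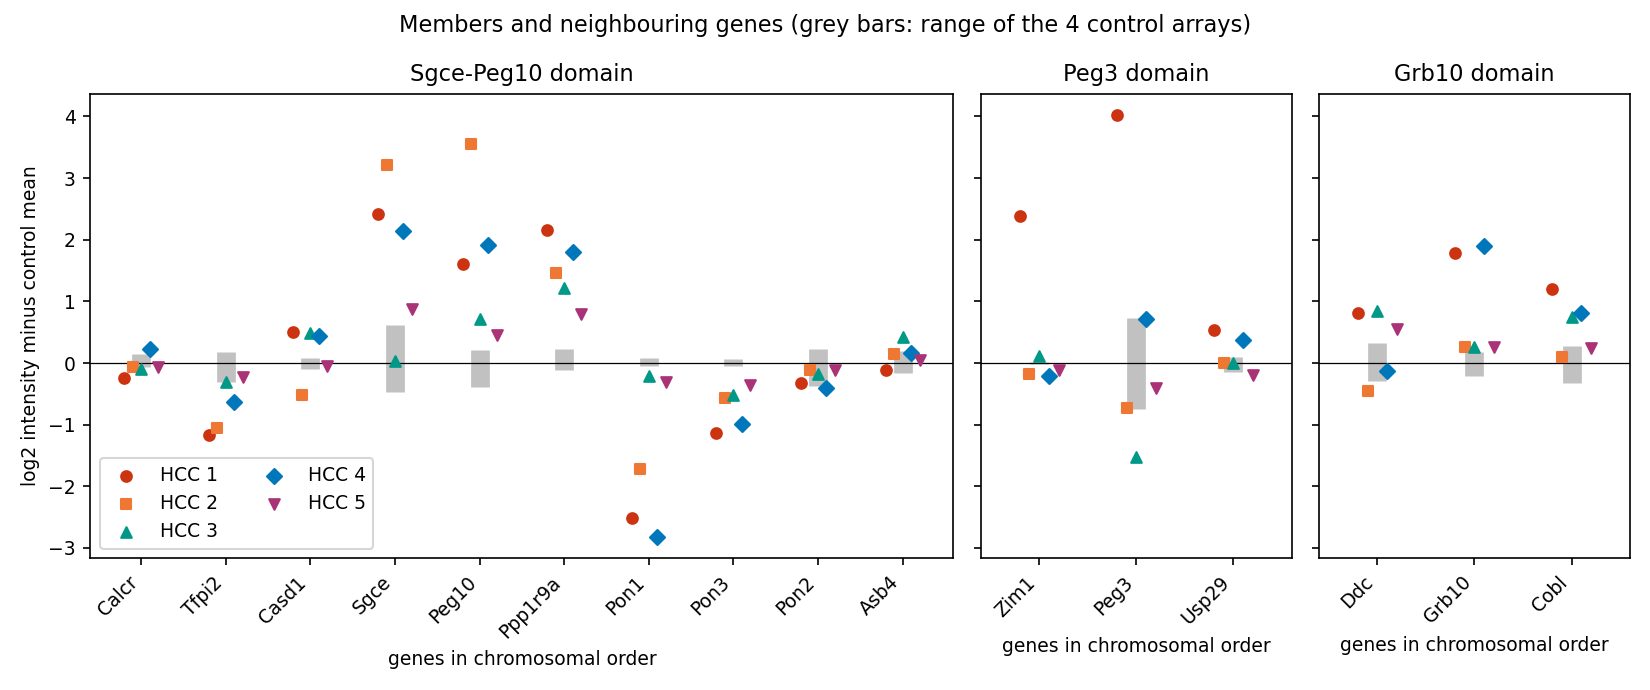
Log2 intensity minus the mean of the 4 control arrays (y axis) for each HCC array (symbols) in the Sgce-Peg10, Peg3 and Grb10 domains, with genes in chromosomal order on the x axis and grey bars for the range of the control arrays. Sgce, Peg10 and Ppp1r9a sit mostly above the bars, Pon1 and Pon3 below them and Pon2, Asb4 and Calcr near 0, while Peg3 and Zim1 are high on HCC array 1 alone.

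Peg3 and Zim1 are neighbouring zinc finger genes on chromosome 7, the first expressed from the paternal and the second from the maternal copy, and both stood far above the controls on 1 tumour. Peg3, a regulator of cell survival and of stem cells of mesenchymal tissues, was at 8.00, 7.35, 6.52 and 7.21 on control arrays 1 to 4. On HCC arrays 1 to 5 it was at 11.30, 6.54, 5.74, 7.98 and 6.87. HCC array 1 was 16.4-fold above the control mean, array 3 was below every control, and the other 3 tumours were within the control range.

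Zim1 was at 5.60, 5.60, 5.57 and 5.56 on control arrays 1 to 4 and at 7.97, 5.41, 5.69, 5.37 and 5.47 on HCC arrays 1 to 5. HCC array 1 was 5.25-fold above the control mean, and the other 4 tumours differed from that mean by at most 0.21 on the log2 scale. The group difference therefore rested on 1 array for both genes. The log2 change was 0.42 for Peg3 (SE 0.99, 95% interval -1.81 to 2.65, limma adjusted p = 0.840) and 0.40 for Zim1 (SE 0.50, 95% interval -0.72 to 1.52, limma adjusted p = 0.680), and without HCC array 1 it was -0.49 and -0.10. Usp29, which shares the Peg3 promoter region, was at 4.63 to 4.87 in control liver and at 5.31, 4.78, 4.78, 5.14 and 4.58 on HCC arrays 1 to 5 (log2 change 0.14, limma adjusted p = 0.617). Its highest value was thus on the same tumour, with a smaller distance from the controls.

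Grb10, an adaptor that dampens insulin and IGF receptor signalling, was at 6.80, 6.57, 6.41 and 6.72 on control arrays 1 to 4 and at 8.41, 6.89, 6.89, 8.52 and 6.89 on HCC arrays 1 to 5. The groups did not overlap, but HCC arrays 2, 3 and 5 exceeded the highest control only slightly, while arrays 1 and 4 were 3.46-fold and 3.72-fold above the control mean. The mean was 6.62 ± 0.17 (SD) in control liver and 7.52 ± 0.86 (SD) in HCC, a log2 change of 0.90 (SE 0.39, 95% interval 0.02 to 1.78; limma unadjusted p = 0.0462, adjusted p = 0.239). Its neighbour Cobl, an actin nucleator, had a log2 change of 0.62 (SE 0.23, limma adjusted p = 0.180) with its highest tumour values, 8.53 and 8.14, also on HCC arrays 1 and 4. Ddc, the aromatic amino acid decarboxylase on the other side of Grb10, was highest on HCC arrays 1 and 3 (10.23 and 10.26; log2 change 0.33, limma adjusted p = 0.536).

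The remaining 4 members differed little. Cdkn1c, the cyclin-dependent kinase inhibitor p57 that restrains fetal growth, was at 7.23, 7.23, 7.27 and 7.40 on control arrays 1 to 4 and at 7.52, 6.99, 7.15, 7.23 and 7.01 on HCC arrays 1 to 5. One tumour was above the controls and 3 were below them, and the log2 change was -0.11 (SE 0.11, 95% interval -0.36 to 0.15, limma adjusted p = 0.625). Without HCC array 1, the highest of the tumours, it was -0.19 (limma unadjusted p = 0.0499, adjusted p = 0.298). Of 9 measured genes of its domain none was called, 5 had a positive and 4 a negative log2 change, and the median was 0.01. The largest of these changes was that of Kcnq1, a potassium channel gene (log2 change 0.77, SE 0.34, limma adjusted p = 0.244). Each tumour was above each control, but HCC array 5 (6.69) only just exceeded control array 1 (6.68). Kcnq1 was at 8.50 on HCC array 1 and 7.45 on array 4, and its log2 change was 0.46 without HCC array 1. Phlda2, which restrains placental growth, had a log2 change of 0.46, the histone chaperone relative Nap1l4 one of 0.21, the tetraspanin Cd81 one of 0.15 and Tssc4 one of 0.01 (limma adjusted p 0.226 to 0.980). The transporter gene Slc22a18 had one of -0.28, the lipid-binding protein gene Osbpl5 one of -0.09 and the trophoblast transcription factor Ascl2 one of -0.06 (limma adjusted p 0.380 to 0.751).

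Plagl1, a zinc finger transcription factor of the cell cycle that is known to act on several other imprinted genes, lay between 6.69 and 7.13 in control liver and between 6.76 and 6.86 in HCC. All 5 tumours were inside the control range, and the log2 change was -0.08 (SE 0.09, 95% interval -0.28 to 0.12, limma adjusted p = 0.650). Mest, a hydrolase-like protein of fetal mesoderm and growing fat, was between 6.95 and 7.13 in control liver and between 6.56 and 7.35 in HCC (log2 change -0.03, SE 0.14, 95% interval -0.35 to 0.28, limma adjusted p = 0.912). Ndn (necdin, a growth suppressor of neurons) was between 5.52 and 6.19 in control liver and between 5.58 and 6.57 in HCC, with HCC array 5 alone above the controls (log2 change -0.05, SE 0.22, 95% interval -0.55 to 0.45, limma adjusted p = 0.920). Magel2, Mkrn3 and Peg12, paternally expressed neighbours of Ndn, had log2 changes of -0.15, -0.20 and -0.18 (limma adjusted p 0.227 to 0.394). Beside Mest, the log2 changes of Cep41, Copg2 and Klf14 were 0.08, 0.01 and -0.03, and beside Plagl1 those of Sf3b5, Ltv1 and Phactr2 were 0.20, 0.10 and -0.29 (limma adjusted p 0.380 to 0.974). Around Gnas, itself without a value, Npepl1 and Stx16 had log2 changes of 0.04 and 0.02 (limma adjusted p 0.821 and 0.948). Ctsz, a lysosomal cathepsin of the Gnas region that macrophages express strongly, had one of -0.98 (SE 0.36, limma unadjusted p = 0.0241, adjusted p = 0.184). None of the measured neighbours of Ndn, Mest, Plagl1 or Gnas was called.

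**Figure D2:**
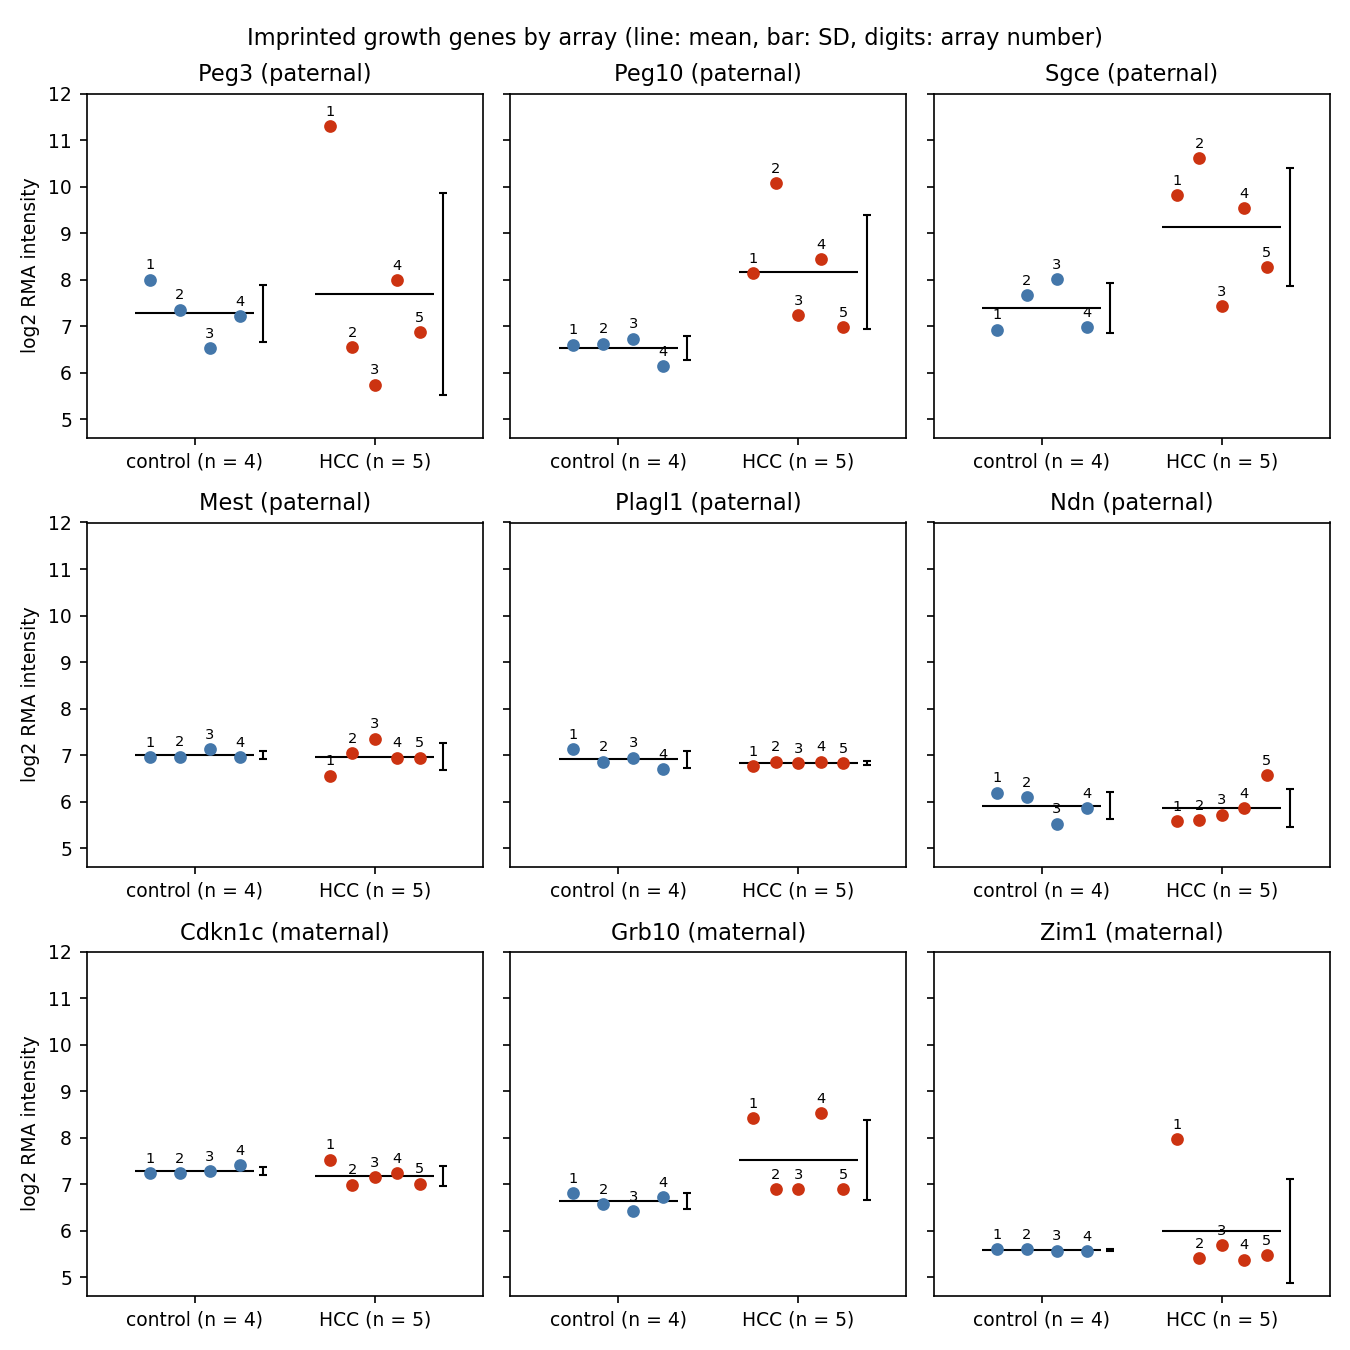
Log2 RMA intensity (y axis) of the 9 measured members on each control array (blue) and HCC array (red), with the array number beside each point, a line at the group mean and a bar for the SD. Peg3 and Zim1 are high on HCC array 1 alone, Grb10 on HCC arrays 1 and 4, and Peg10 and Sgce on HCC arrays 1, 2 and 4, while Mest, Plagl1, Ndn and Cdkn1c stay near the control values.

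In limma, 0 of the 9 members were called higher and 0 lower, where 0.858% of all 19938 genes were called higher and 0.160% lower (1.02% in either direction). At an unadjusted p under 0.05, 3 of 9 (Peg10, Sgce and Grb10) were higher and none lower, against 10.5% of all genes higher and 9.85% lower (20.4% in either direction). The tumours lay above all controls for 2 of 9 members, Peg10 and Grb10, against 5.63% of all genes, and below all controls for none of 9 members, against 3.86% (9.48% in either direction). The SD among tumours was larger than that of 99.8% of all genes for Peg3, 99.0% for Sgce, 98.8% for Peg10, 98.5% for Zim1 and 96.9% for Grb10. For Plagl1 this share was 3.4%, and for Cdkn1c, Mest and Ndn it was 56.4%, 69.2% and 84.0%. So 5 members had a large SD among tumours, for Zim1 through HCC array 1 alone. Together with the spread among controls, this SD enters the errors above.

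The tumours differed in which members were high. HCC array 1 had 5 of 9 members at least 1 above the control mean on the log2 scale (Peg3, Peg10, Sgce, Grb10 and Zim1), array 4 had 3 (Peg10, Sgce and Grb10) and array 2 had 2 (Peg10 and Sgce). Arrays 3 and 5 had none. How many of all genes were that far above their control mean on each array was not counted. These counts are therefore a description, and whether they are particular to the members was not tested. Peg10 and Sgce were thus high on 3 tumours that differed in Grb10, Peg3 and Zim1.

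**Figure D3:**
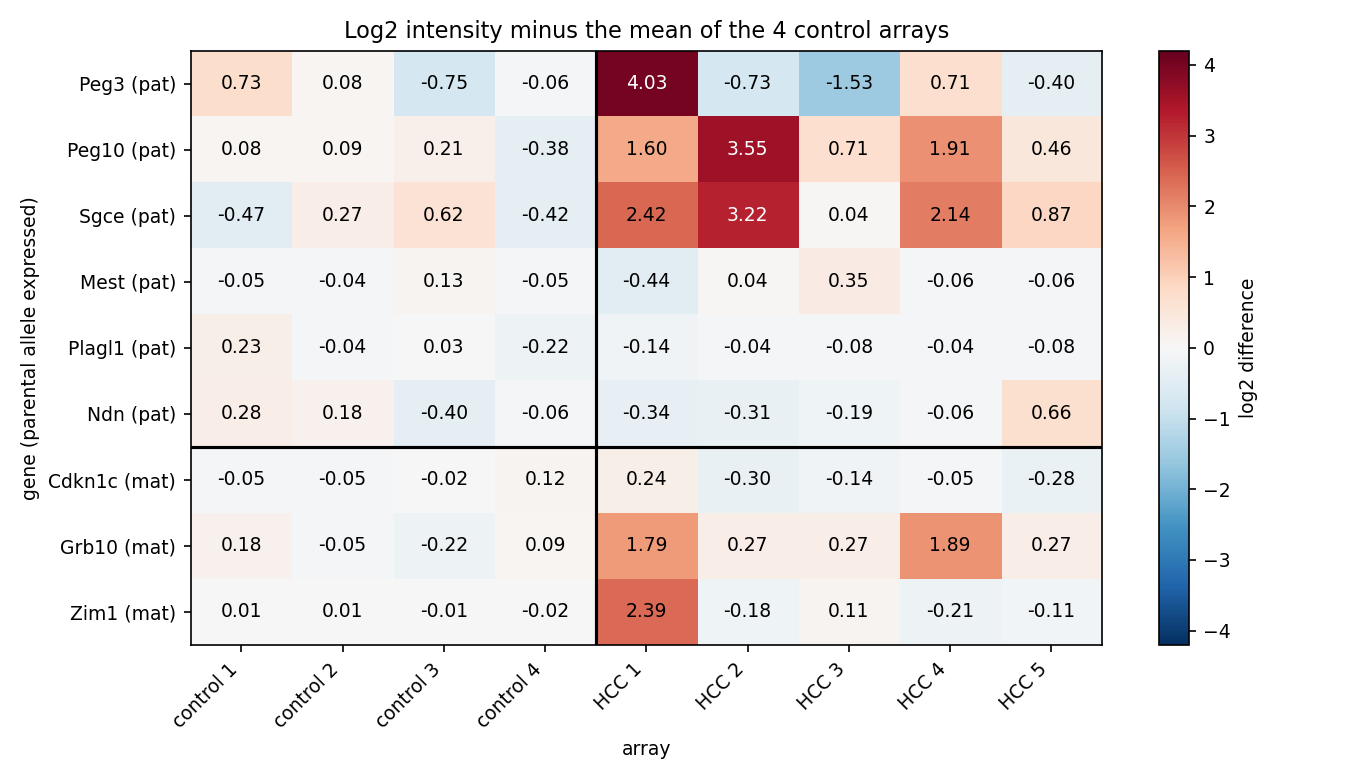
Log2 intensity of each member minus its mean on the 4 control arrays, with control and HCC arrays in columns and members in rows (pat, paternally expressed; mat, maternally expressed); red is above and blue below the control mean. Peg3 reached 4.03 on HCC array 1, Peg10 and Sgce reached 3.55 and 3.22 on HCC array 2, and no member reached 1 on HCC array 3 or 5.

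Paternally and maternally expressed members did not separate into opposite directions. The median log2 change was 0.19 over the 6 paternally expressed members (range -0.08 to 1.74) and 0.40 over the 3 measured maternally expressed ones (range -0.11 to 0.90), beside -0.03 over all genes. Without HCC array 1 these medians were 0.04 and -0.10. Averaged over its measured members, the difference of the paternally expressed group from its control mean was 1.19, 0.95, -0.12, 0.77 and 0.24 on HCC arrays 1 to 5 on the log2 scale. For the maternally expressed group this difference was 1.47, -0.07, 0.08, 0.54 and -0.04 on the same arrays. Both groups were highest on array 1, and on array 2 the paternally expressed mean was high, through Peg10 and Sgce, with the maternally expressed mean at the control level. Medians of so few chosen genes are a description.

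Other imprinted genes were read from lists of known members. Of 17 measured among 22 other paternally expressed genes, none was called in limma, 2 were higher (Igf2 and Airn) and 2 lower at an unadjusted p under 0.05, and the median log2 change was -0.05. Over all genes, 10.5% were higher and 9.85% lower at that unadjusted p, and 0.858% and 0.160% were called. Igf2, the fetal growth factor, had a log2 change of 4.03 (limma adjusted p = 0.104). It was between 9.31 and 12.10 on HCC arrays 1, 2, 4 and 5 and at 6.41 on array 3, within the control range (6.19 to 6.43). Peg3 and Sgce were also lowest on HCC array 3. Peg10 was lowest on array 5 (6.98), and Grb10 was at 6.89 on arrays 2, 3 and 5. Airn, the noncoding RNA antisense to Igf2r, was at 6.12 to 7.20 in control liver and 7.01 to 8.84 in HCC (log2 change 1.19, limma adjusted p = 0.134). Mcts2, a translation factor retrogene, had a log2 change of -0.31 (limma adjusted p = 0.453). Slc38a4, an amino acid transporter imprinted in fetal tissues, was the one gene of this list with each tumour below each control, by a small distance (13.06 to 13.27 and 12.53 to 13.05, limma adjusted p = 0.246). This is 1 of 17 genes, near the share of 3.86% of all genes. For 0 of the 17 was each tumour above each control, against 5.63% of all genes.

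Of 23 measured among 27 other maternally expressed genes, 2 were called higher in limma, Ppp1r9a and the noncoding RNA Meg3 (log2 change 2.59, adjusted p = 0.00561), and none lower. The share of all genes called was 0.858% higher and 0.160% lower. At an unadjusted p under 0.05 in limma, 8 of the 23 were higher and 1, Tfpi2, lower, against 10.5% and 9.85% of all genes. The median log2 change of the 23 was 0.14. Rian, a noncoding RNA of the Meg3 domain, had a log2 change of 2.74 (limma adjusted p = 0.0640; 0.00144 without HCC array 5). Atp10a, a phospholipid flippase in the domain of Ndn, was at 6.29 to 6.39 in control liver and at 7.96, 6.69, 8.35, 7.13 and 6.34 on HCC arrays 1 to 5 (log2 change 0.95, limma adjusted p = 0.209). The list named for targets and partners of Plagl1 held 12 measured genes of 14, of which Meg3 was called, 6 had a positive and 6 a negative log2 change, and the median was 0.20. In that list Dcn, a matrix proteoglycan of stellate cells and fibroblasts, was lowest on HCC array 1 (9.64, against 11.34 to 11.74 in control liver), the tumour with the highest Peg3. Other stellate cell and fibroblast markers went both ways on that array, as given below.

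**Figure D4:**
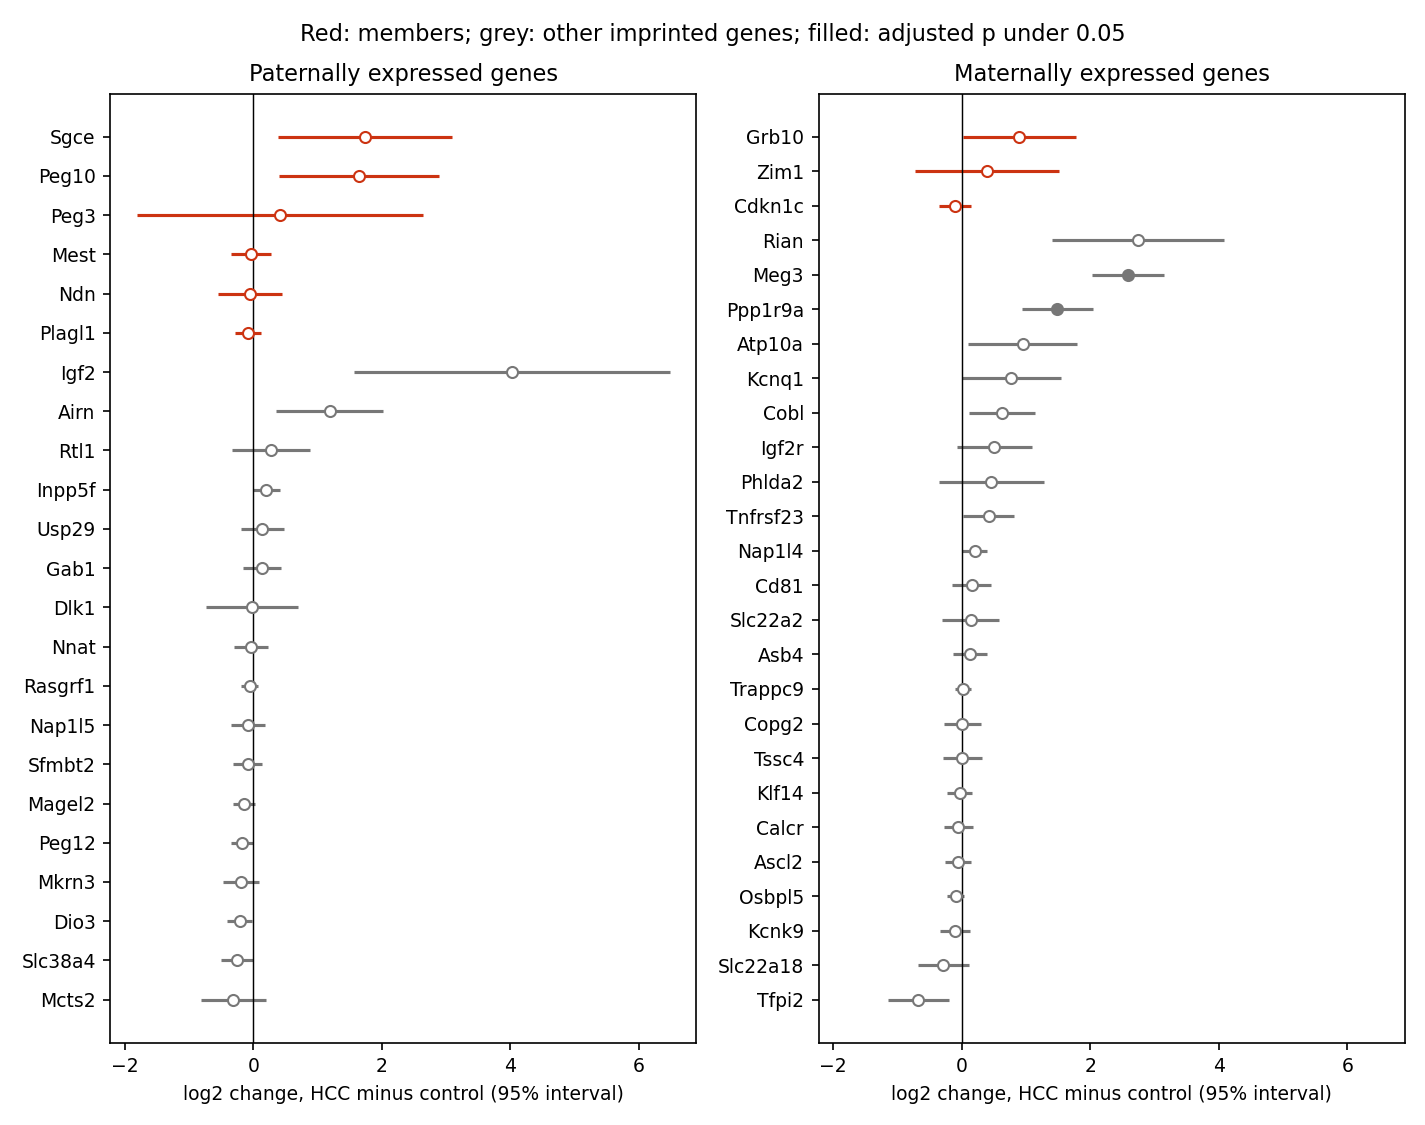
Log2 change (HCC minus control, x axis) with its 95% interval for the paternally expressed genes (left) and maternally expressed genes (right) that were measured; red marks the members, grey the other imprinted genes, and filled points an adjusted p under 0.05. The filled points are Meg3 and Ppp1r9a, and the members with intervals above 0 are Sgce, Peg10 and Grb10.

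Several members are known from mesenchymal cells, so markers of other cell types are given beside them. For the marker counts, 0.858% of all genes were called higher and 0.160% lower in limma. At an unadjusted p under 0.05, 10.5% were higher and 9.85% lower. The tumours lay above all controls for 5.63% of all genes and below them for 3.86%. Beside the members, of 12 stellate cell and fibroblast markers none was called in limma, and 4 were higher and 1 lower at an unadjusted p under 0.05. Their summed intensity was 4740 to 5802 in control liver and 3084 to 7174 in HCC, lowest on HCC array 1 and highest on array 2. Peg3 and Zim1 were highest on the tumour where this sum was lowest, and Peg10 and Sgce on the tumour where it was highest. This was not particular to these markers. HCC array 2 also had the highest macrophage (4838), endothelial (2802) and lymphocyte (625) sums of all arrays. HCC array 1 also had the lowest macrophage (1281) and hepatocyte (38453) sums. Each sum gives most weight to the brightest markers. Averaged on the log2 scale, the difference of the stellate cell and fibroblast markers from their control mean was -0.20 on HCC array 1 and 0.47 on array 2. The markers disagreed on HCC array 1. Dcn, Lrat, Pdgfra and Des had their lowest value of all arrays there (9.64, 6.26, 6.33 and 5.70). Acta2, Col1a1, Col1a2 and Reln had their highest (7.99, 7.52, 7.67 and 8.68). None of 6 macrophage markers was called in limma, with 0 higher and 1 lower at an unadjusted p under 0.05, and their sum was 1579 to 3555 in control liver, 4838 on HCC array 2 and 1281 to 1515 on the other tumours. None of 7 endothelial markers was called either (1 higher and 1 lower at an unadjusted p under 0.05 in limma), with sums of 1906 to 2345 and 1847 to 2802. The lower one, Kdr, had each tumour below each control.

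Of 5 biliary markers 1, Sox9, was called higher in limma, 3 were higher and none lower at an unadjusted p under 0.05, 3 had each tumour above each control, and the sum was 509 to 582 in control liver and 977 to 1902 in HCC. Of 5 proliferation genes 2, Top2a and Mcm6, were called higher in limma, all 5 were higher at an unadjusted p under 0.05 with each tumour above each control, and the sum was 326 to 509 in control liver and 1360, 1240, 1515, 2594 and 3796 on HCC arrays 3, 5, 2, 4 and 1. The tumours with high Grb10, arrays 1 and 4, had the 2 highest sums of proliferation genes. They also had the 2 highest sums of biliary markers (1902 and 1726). Averaged on the log2 scale, the biliary difference from the control mean was highest on HCC array 2 (1.49). Of 6 hepatocyte markers none was called (0 higher and 2 lower at an unadjusted p under 0.05 in limma), and the sum was 54258 to 57690 in control liver and 38453 to 54311 in HCC, lowest on array 1. The 2 lower ones, Cps1 and Tat, had each tumour below each control. Of 6 lymphocyte markers none was called in limma, nor had any an unadjusted p under 0.05, and the sum was 479 to 539 and 406 to 625. No marker had an intensity of 0, since RMA gives none. The part of these cell types and of proliferation in the members' values was not tested.

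Since no member passed, the genes with the most similar pattern were named for the members with the largest changes, by Pearson r of log2 intensity over the 9 arrays. For Peg10 they were Atpif1, an inhibitor of mitochondrial ATP synthase (r = 0.976), Aida, an axin-interacting protein (r = 0.970), and Mfge8, a secreted bridge to apoptotic cells (r = 0.967). For Sgce they were Capg, an actin-capping protein (r = 0.959), Osgin2 (r = 0.957) and the zinc finger gene Zfp54 (r = 0.955). Mfge8 had the largest change of these genes, from 7.02 ± 0.24 (SD, n = 4) to 8.99 ± 1.10 (SD, n = 5), a log2 change of 1.97 (SE 0.50, limma adjusted p = 0.0912). Mfge8 was called with Xist as a covariate (limma adjusted p = 0.0474), with the replicate block (0.0474) and without HCC array 5 (0.0298). None of these 6 genes was called in limma (adjusted p 0.0912 to 0.250). In limma 5 of the 6 had an unadjusted p under 0.05, against 20.4% of all genes in either direction. The 6 genes were picked for likeness to Peg10 and Sgce, which had such a p themselves, so this count is no separate result. These correlations are the highest among 19938 genes on arrays that share the group difference, and are given as a description.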

How the data were processed

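The authors deposited probe set intensities on a linear scale, made with RMA per the submitters' processing notes; GenePattern and R were used per the labels of the series, with no version given in the sources used here. That the scale is linear follows from the range of values, 3.91 to 21468. Intensities were transformed to log2 with no pseudocount, floor or filter. RMA was not repeated, since scanner files were not used here.

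Of 35512 probe sets, 21789 had 1 gene symbol in the platform annotation, 1621 several and 12102 none. Genes with several single-symbol probe sets (999) kept the one with the highest mean; each of the 9 measured members had 1. Of 19938 genes, 19855 matched a RefSeq gene table (GRCm38.p6) by Entrez identifier.

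HCC and control were compared with limma 3.58.1 (lmFit and eBayes, R 4.3.3), two-sided, with group as the only term, Benjamini-Hochberg adjustment over all genes and a threshold of 0.05. The fit was tested on simulated data. Python 3.11.15, pandas 2.3.3, numpy 2.4.6 and matplotlib 3.10.9 served for sequences and plots.

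The members, lists and alternatives were chosen with earlier results of these data known. Named were the members, their measured domain neighbours, the called or 3 most changed genes of each imprinted list, and the 3 genes most correlated with each called member (with none called, with the 2 most changed members). Slc38a4 and the markers Dcn, Lrat, Pdgfra, Des, Acta2, Col1a1, Col1a2, Reln, Kdr, Cps1, Tat, Sox9, Top2a and Mcm6 were chosen after seeing their values. Alternatives were a filter on dim genes, repeated quantile normalisation, array medians subtracted, a trended and robust eBayes, the mean of a gene's probe sets, each probe set on its own, Xist as a covariate, the replicate number as a block, and leaving out each array.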

Additional observations from a re-analysis of the deposited data

Results flagged for a closer look

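Within each group the highest and lowest array was compared with its nearest neighbour, as a share of the group's range, for the 9 members in both groups. Of 18 groups, 3 had an array set apart past Dixon's 95% critical value, where chance gives about 5%. Zim1 was at 7.97 on HCC array 1, with the nearest tumour at 5.69. Ndn was at 6.57 on HCC array 5, with the nearest tumour at 5.86. Mest was at 7.13 on control array 3, with the nearest control at 6.96. Peg3 on HCC array 1 (11.30) did not pass this criterion, because the other tumours were themselves spread out.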

How the results depend on the processing

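No member was called in limma under any of the alternatives run, single-array omissions included, and Peg10 and Sgce had an unadjusted p under 0.05 in each. Grb10 did too, except with Xist as a covariate, without any one control and without HCC array 1 or 4; without HCC array 1 Cdkn1c, lower, had one instead (omission range -0.19 to -0.06). Every change in direction among the members came from leaving out 1 array. Over these omissions the log2 change ran from -0.49 to 0.90 for Peg3 and from -0.10 to 0.55 for Zim1 (each lowest without HCC array 1), from -0.13 to 0.07 for Mest and from -0.23 to 0.04 for Ndn. It ran from 1.17 to 1.94 for Peg10 (adjusted p 0.0668 to 0.296), 1.37 to 2.16 for Sgce (0.0994 to 0.312) and 0.65 to 1.06 for Grb10 (0.159 to 0.390). The filter left 7 members and removed Zim1 and Ndn. Omissions gave 0 to 1 calls among other paternally expressed genes (Igf2, without HCC array 3) and 1 to 3 among maternally expressed ones, higher in HCC. Over all genes, 171 higher and 32 lower became 10 to 631 and 0 to 556 over the omissions (most without HCC array 5), 285 and 93 with the filter, and 108 and 11 with array medians subtracted; after quantile normalisation 50 were lower. Same-numbered arrays correlated at -0.083 to 0.324 in their deviations. Without the same value for differently numbered arrays beside it, this range cannot decide on pairing. The numbers were not taken as pairs because the titles do not state that they pair animals. The replicate block gave 259 higher and 220 lower, with 1 call (Airn) among other paternally expressed genes. HCC array 5 has no control of its number, so the block also takes it out of the comparison, and leaving it out alone gave 631 and 556. Among neighbours near 0 the sign turned for Stx16 (-0.03 after quantile normalisation, -0.02 with the block, -0.05 to 0.09 over omissions), Copg2 (-0.09 with Xist, -0.07 to 0.08), Tssc4 (0.00 after quantile normalisation, -0.06 to 0.10), Cep41 (-0.06 to 0.13), Klf14 (-0.08 to 0.04), Ltv1 (-0.03 to 0.17) and Npepl1 (0.00 to 0.10). The cause of these differences was not tested.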
